A study of Mus musculus with 6 samples.

Results

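Arg1, Nos2 and Glul encode 3 enzymes of arginine and glutamine metabolism, arginase 1, inducible nitric oxide synthase and glutamine synthetase. They were taken by symbol from a deposited table of 559 genes, and all 3 are among them. The libraries were 3 from oleic acid (OA) treated cells and 3 from control cells, and both groups were natural killer (NK) cells purified from the spleens of C57BL/6 mice. The OA cells were kept with 0.2 mM oleic acid, a monounsaturated fatty acid, for 36 h, and the control cells were kept without it. Per the labels the treatment was processed only once. They do not make clear whether that refers to the addition of OA or to the whole experiment. The question was which transcripts differ in NK cells exposed to OA. The labels do not say whether the libraries of a group came from separate animals or cultures, so the spread between them may be technical. Levels are in TPM, a transcript's length-adjusted share of its library on a scale common to all libraries, as the authors deposited them.

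Arginase 1 splits arginine into ornithine and urea, and ornithine feeds the synthesis of polyamines and proline. Inducible nitric oxide synthase oxidises the same arginine to nitric oxide and citrulline, so the enzymes draw on one substrate. Glutamine synthetase joins ammonia to glutamate to give glutamine. In mouse macrophages Nos2 is a classical target of interferon gamma together with microbial signals, and Arg1 is a classical target of interleukin 4 and interleukin 13. NK cells are themselves a main source of interferon gamma.

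The table holds only genes that its authors called different between these same libraries, with a largest Q value of 0.0499. Arg1, Nos2 and Glul were chosen for their difference between OA and control, so their levels are given as a description, without a test. In the authors' deposited table their Q values were 0.013 for Arg1, 0.015 for Nos2 and 0.00719 for Glul. The authors' deposited table gives log2 fold changes of OA over control of 1.54 for Arg1, −0.89 for Nos2 and 0.81 for Glul. In limma, fitted over the whole table, 3 of the 3 genes passed an adjusted p under 0.05, as did 76.0% of the 559 listed genes. All OA libraries lay on one side of all control libraries for 3 of the 3 genes, and for 93.6% of the listed genes. A gene not listed is called so here, and its level is not known.

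OA replicate 3 stood apart by heart muscle transcripts, and OA replicate 2 carried fewer of them. Of 18 heart muscle genes, a list written after their values were seen, 14 were listed, and 14 were highest in OA replicate 3. Their summed TPM was 52.2, 517 and 7011 in OA replicates 1, 2 and 3, and between 36.2 and 61.1 in control libraries. The OA libraries came in the same order by this sum as by Arg1 and Glul, while OA replicate 1, which lay within the control range, was also above every control library for both genes. Without OA replicate 3 the log2 differences of OA minus control were 1.53 for Arg1, −0.70 for Nos2 and 0.66 for Glul, and the part of the heart muscle transcripts in the levels of the 3 genes was not tested further.

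On the mouse build GRCm38, the RefSeq gene models place Arg1 at chr10:24915207-24927470, Nos2 at chr11:78920787-78960226 and Glul at chr1:153899929-153909723. In the GENCODE annotation of that build Arg1 lies on the minus strand, with 8 exons in its coding transcript. Nos2 lies on the plus strand, with 27 exons in its fullest coding transcript, and no other annotated gene overlaps either of them. Glul lies on the plus strand, with 7 exons in its fullest coding transcript. The coding gene Teddm2 on the opposite strand and the microRNA gene Mir8114 overlap it. Exons of Teddm2 share 116 of the 3323 exon bases of Glul. Whether reads were counted by strand is not given in the sources used here, and the part of Teddm2 reads in the Glul level was not tested.

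Of the 3 genes, Glul has an entry in the RefSeq promoter table (GRCm38.p6). The 250 bases before its start, chr1:153899679-153899928 on the plus strand, are shown because Glul is the member whose regulatory sequence was at hand. Capitals mark CCAAT boxes, the binding letters of the general factor NF-Y, found on either strand.
Glul: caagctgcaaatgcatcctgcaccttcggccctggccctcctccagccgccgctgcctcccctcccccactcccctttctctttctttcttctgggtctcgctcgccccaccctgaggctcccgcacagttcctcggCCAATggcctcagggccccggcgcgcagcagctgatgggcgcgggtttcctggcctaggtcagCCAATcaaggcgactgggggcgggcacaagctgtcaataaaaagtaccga
The window held 2 CCAAT boxes, at positions −113 to −109 and −50 to −46 counted from the start, and 33.8% of 32851 promoter windows of this length held at least 1. It held 0 matches on either strand to 4 other patterns. These were the TATA box TATAAA (in 12.4% of windows), the gamma-activated sequence TTCNNNGAA of STAT factors (7.02%), the hypoxia response core ACGTG (16.6%) and the C/EBP pattern TTNNGNAA (36.8%). A match is a description of the letters and not a bound site. The GC content of the window was 64.8%, against a median of 52.4% over all windows.

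Arg1, the arginase gene, had the largest log2 difference of the 3. Its level was 153, 176 and 199 TPM in OA replicates 1, 2 and 3, against 70.0, 81.3 and 30.9 TPM in control replicates 1, 2 and 3. The lowest OA library stood 1.88-fold above the highest control library, and control replicate 3 was the lowest of the 6. The mean was 176 ± 23.2 TPM in OA and 60.8 ± 26.4 TPM in control (SD, n = 3 each), a 2.90-fold ratio of the means. Relative to the mean, the spread was 13.2% (SD over mean) in OA libraries and 43.5% in control libraries, where the highest stood 2.63-fold above the lowest. On the log2(TPM + 1) scale, which understates changes of low genes, the difference of OA minus control was 1.62 (SE 0.383). Without control replicate 3 it was 1.20, and without control replicate 2 it was 1.89.

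Nos2, the nitric oxide synthase gene, was lower in OA. It stood at 72.9, 63.8 and 46.6 TPM in OA replicates 1, 2 and 3, against 99.9, 99.2 and 140 TPM in control replicates 1, 2 and 3. Every OA library was below every control library, with OA replicate 3 the lowest and control replicate 3 the highest. The highest OA library was at 0.735 of the lowest control library. The mean was 61.1 ± 13.4 TPM in OA and 113 ± 23.6 TPM in control (SD, n = 3 each), which put OA at 0.540 of control. The log2 difference of OA minus control was −0.88 (SE 0.220). It was −0.70 without OA replicate 3 and −0.72 without control replicate 3. Without replicate 3 of both groups it was −0.54.

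Glul, the glutamine synthetase gene, had the smallest log2 difference of the 3. Its level was 96.9, 111 and 138 TPM in OA replicates 1, 2 and 3, against 70.3, 73.9 and 54.2 TPM in control replicates 1, 2 and 3. The groups did not overlap, and the lowest OA library stood 1.31-fold above the highest control library. Glul averaged 115 ± 20.9 TPM in OA and 66.1 ± 10.5 TPM in control (SD, n = 3 each), a 1.75-fold ratio. The log2 difference of OA minus control was 0.79 (SE 0.179), and it was 0.66 without OA replicate 3 and 0.52 without replicate 3 of both groups. As for Arg1, OA replicate 3, the library with the heart muscle transcripts, was the highest and control replicate 3 the lowest.

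**Figure D1:**
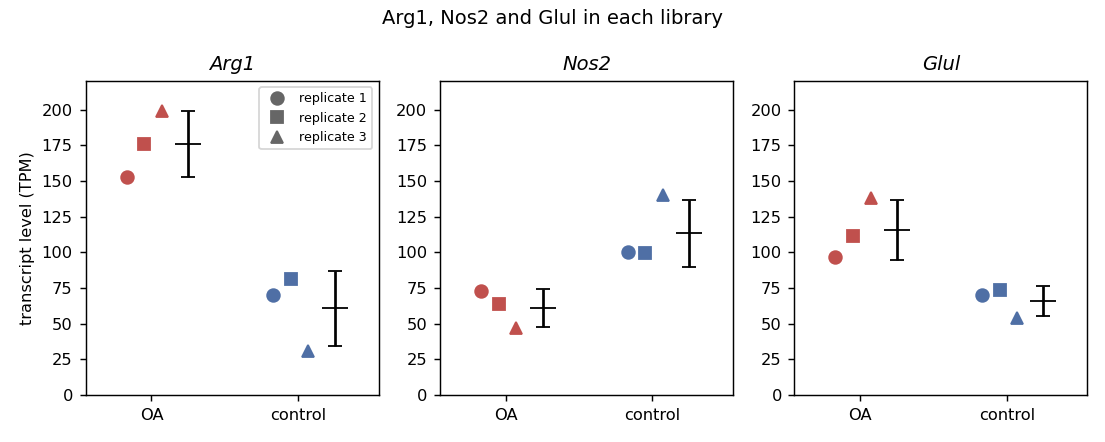
TPM of Arg1, Nos2 and Glul (y axis) in each OA library (red) and control library (blue); the black line is the group mean and the bar 1 SD, n = 3. Arg1 and Glul were higher in every OA library than in any control library, Nos2 was lower, and replicate 3 lay farthest from the other group in both groups.

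Within each library the balance of the arginine enzymes was reversed between the groups. The ratio of Arg1 to Nos2 TPM was 2.10, 2.76 and 4.28 in OA replicates 1, 2 and 3, against 0.701, 0.819 and 0.220 in control replicates 1, 2 and 3. Arg1 therefore exceeded Nos2 in 3 of 3 OA libraries and in 0 of 3 control libraries. The ratio averaged 3.04 ± 1.12 in OA and 0.580 ± 0.317 in control (SD, n = 3 each), and the lowest OA ratio was 2.56-fold above the highest control ratio. The mean log2 ratio was 1.54 ± 0.52 in OA and −0.99 ± 1.04 in control, a difference of 2.54 on the log2 scale. It was 1.94 without control replicate 3 and 1.67 without replicate 3 of both groups. A ratio within a library does not depend on how that library was scaled.

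The other ratios were also higher in every OA library than in any control library. For Arg1 to Nos2 and Glul to Nos2 this separation follows from the opposite directions of the genes and their groups not overlapping. It is therefore not a further result. Glul to Nos2 was 1.33, 1.75 and 2.96 in OA replicates 1, 2 and 3, against 0.704, 0.744 and 0.386 in control replicates 1, 2 and 3. Arg1 to Glul was nearly the same in the OA libraries, at 1.58, 1.58 and 1.44, and it was 0.996, 1.10 and 0.571 in control replicates 1, 2 and 3. Control replicate 3 thus had less Arg1 per Glul transcript than the other controls. The summed TPM of Arg1 and Nos2 was 226, 239 and 246 in OA replicates 1, 2 and 3, against 170, 181 and 171 in the controls. Arg1 made up between 67.7% and 81.1% of that sum in OA libraries and between 18.1% and 45.0% in control libraries.

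**Figure D2:**
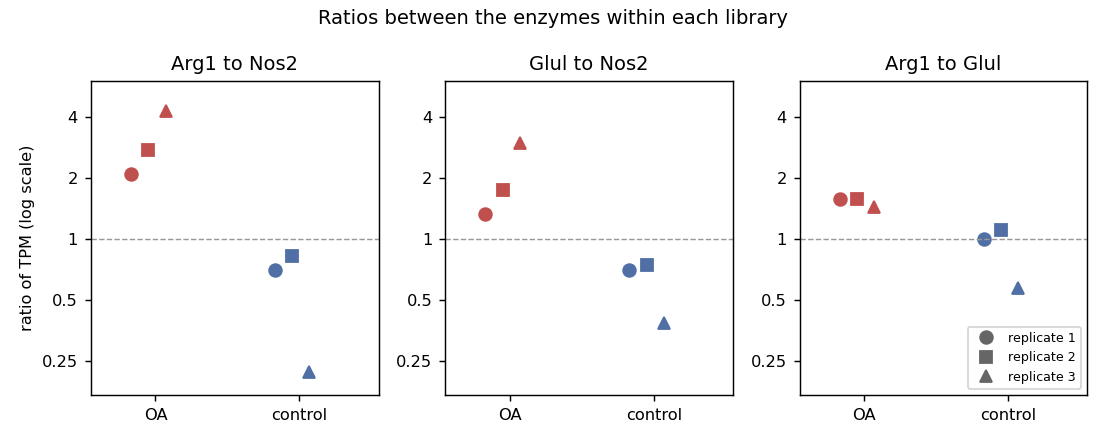
Ratios of TPM between the 3 enzyme genes (y axis, log scale) in each OA library (red) and control library (blue), with a dashed line at a ratio of 1. The Arg1 to Nos2 ratio lay between 2.10 and 4.28 in OA libraries and between 0.220 and 0.819 in control libraries.

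The order of the 3 genes by TPM differed between the groups. In OA libraries the order was Arg1, Glul and Nos2 in every library. In control libraries Nos2 was the highest in every library, and Arg1 and Glul were next to each other, at 60.8 ± 26.4 and 66.1 ± 10.5 TPM (SD, n = 3), within their spread. By mean TPM in OA, Arg1 held rank 150, Glul rank 214 and Nos2 rank 325 among the 559 listed genes. In control Nos2 held rank 212, Glul rank 300 and Arg1 rank 308.

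By log2 difference Arg1 held rank 29 of 559 from the highest. Of the 28 genes above it, 27 had a larger standard error than Arg1. Its neighbours in that order were the heart muscle genes Lrrc10, with a log2 difference of 1.64 (SE 1.06), and Myom2, with 1.59 (SE 1.01). Both stood high in OA replicate 3, with Myom2 at 0.15, 0.86 and 14.8 TPM in OA replicates 1, 2 and 3 and at most 0.10 TPM in control libraries. Nos2 held rank 5 from the lowest, between the chemokine gene Ccl24 (−0.98, SE 0.243) and the netrin receptor gene Unc5c (−0.88, SE 0.235). Glul held rank 75 from the highest, between the potassium channel gene Kcng2 (0.80, SE 0.567) and Serpinb2 (0.79, SE 0.188), which encodes a plasminogen activator inhibitor. Kcng2 too was highest in OA replicate 3, at 4.35 TPM, with 0.28 and 0.52 TPM in OA replicates 1 and 2 and at most 0.28 TPM in control libraries. Among the 472 genes with a mean of at least 10 TPM, Arg1 ranked 20 and Glul 29 from the highest, and Nos2 ranked 4 from the lowest.

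Few other genes of arginine and glutamine metabolism were listed. Of 19 genes of arginine uptake and the urea cycle, 1 was listed, the arginine transporter gene Slc7a2, at 39.9 ± 2.05 TPM in OA and 48.3 ± 6.34 TPM in control (SD, n = 3 each), and it did not pass the limma threshold (adjusted p = 0.0612). Arg2, Ass1 and Asl were not listed. Of 19 genes of a polyamine and proline synthesis list, which also holds genes of their breakdown, 1 was listed. This was the spermine oxidase gene Smox, a gene of polyamine breakdown and not of synthesis. Smox rose to 215.3 ± 5.74 TPM in OA, against 179 ± 6.66 TPM in control (SD, n = 3 each, limma adjusted p = 0.026). Limma called 36.0% of all listed genes higher. The ornithine decarboxylase gene Odc1 was not listed. Of 20 genes of the other nitric oxide synthases, their cofactor and nitric oxide signalling, 0 were listed.

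Of 30 genes of glutamine and glutamate handling beside Glul, 2 were listed and 2 rose, beside 36.0% of all listed genes. Slc7a11, the cystine and glutamate exchanger gene, rose to 162 ± 7.78 TPM in OA, against 140 ± 7.40 TPM in control (SD, n = 3 each). Gclm, which encodes the modifier subunit of the enzyme that joins glutamate to cysteine for glutathione, rose to 262 ± 2.24 TPM in OA, against 217 ± 22.8 TPM in control. With libraries scaled to equal medians 0 of the 2 passed. The glutamine carrier gene Slc1a5 was not listed.

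Signals known to set Arg1 and Nos2 in macrophages divided. Of 31 such genes 11 were listed, of which 7 rose and 3 fell, against 36.0% of listed genes higher (201) and 40.1% lower (224) over the table. With libraries scaled to equal medians limma called 162 genes of the table higher and 80 lower. The median log2 difference of the 11 signal genes, without that scaling, was 0.23, beside 0.14 over all listed genes. Ifng, the interferon gamma gene, fell to 879 ± 182 TPM in OA, against 1517 ± 235 TPM in control (SD, n = 3 each). Il13, whose product induces Arg1 in macrophages, also fell, to 166 ± 18.2 TPM in OA, against 244 ± 33.4 TPM in control. Csf2, a myeloid growth factor gene, fell to 153 ± 13.7 TPM in OA, against 201 ± 15.8 TPM in control. Cd14, part of the receptor for bacterial lipopolysaccharide, rose 1.46-fold, the anti-inflammatory cytokine gene Il10 1.44-fold and the prostaglandin synthase gene Ptgs2 1.29-fold. The others of the list that rose were the cytokine genes Tnf, Il1b, Il6 and Il12a, named after their values were seen. Il4 and its receptor gene Il4ra were not listed.

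Of 37 transcription factors and feedback regulators linked to Arg1, Nos2 or Glul, 5 were listed, of which 0 rose and 4 fell. Over all listed genes limma called 36.0% higher and 40.1% lower. Irf1, an interferon-induced factor that acts on Nos2 in mouse macrophages, fell to 382 ± 27.4 TPM in OA, against 467 ± 28.1 TPM in control (SD, n = 3 each). Klf4, a factor linked to Arg1 in mouse macrophages, fell to 16.2 ± 1.66 TPM in OA, against 23.9 ± 1.67 TPM in control. Socs1, a brake on interferon signalling, and Myc fell to 0.836 and 0.856 of control. Socs3 was at 339 ± 8.65 TPM in OA and 313 ± 7.02 TPM in control and did not pass (limma adjusted p = 0.0627). With libraries scaled to equal medians 1 of the 5 fell.

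Genes that accompany Nos2 in classically activated macrophages differed in both directions. Of 31, 15 were listed, of which 4 rose and 9 fell, beside 36.0% higher and 40.1% lower over all listed genes. Their median log2 difference was −0.28, beside 0.14 over all listed genes. The interferon-induced chemokine genes Cxcl9 and Cxcl10 fell to 0.430 and 0.660 of control, the guanylate-binding protein gene Gbp2 to 0.751, the chemokine gene Ccl5 to 0.713, Ly6i to 0.690 and Ly6c2 to 0.656. Several of these are also expressed by lymphocytes. The inflammatory cytokine genes Tnf, Il1a, Il1b and Il6 of the same list were the 4 that rose, and they were named after their values were seen. With libraries scaled to equal medians 5 members fell.

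Genes that accompany Arg1 in alternatively activated macrophages were also mixed. Of 31, 9 were listed, of which 6 rose and 2 fell, beside 36.0% higher and 40.1% lower over all listed genes. The median log2 difference of the 9 was 0.39, beside 0.14 over all listed genes. The fatty acid receptor gene Cd36 rose to 220 ± 59.0 TPM in OA, against 100.4 ± 22.9 TPM in control (SD, n = 3 each). It was highest, at 286 TPM, in OA replicate 3, the library with the heart muscle transcripts. Il10, Il1rn, which encodes an interleukin 1 antagonist, and the transcription factor gene Egr2 rose 1.44-fold, 1.38-fold and 1.33-fold. Ccl24, a chemokine gene of that state, and Klf4 fell to 0.468 and 0.676 of control. The widely used markers of this state Retnla, Chil3 and Mrc1 were not listed.

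Hypoxia and glycolysis genes, listed because hypoxia raises Arg1 in mouse macrophages, had 5 of 32 members in the table, of which 2 rose and 1 fell. Over all listed genes limma called 36.0% higher and 40.1% lower. Hilpda, a lipid droplet gene induced by hypoxia and by fatty acids, rose to 297 ± 26.8 TPM in OA, against 144 ± 37.6 TPM in control (SD, n = 3 each), and Vegfa rose 1.32-fold. The glycolytic gene Hk2 fell to 0.845 of control. Ldha stood at 1511 ± 63.5 TPM in OA and 1658 ± 41.4 TPM in control, and Tpi1 at 710 ± 20.3 TPM in OA and 775 ± 14.4 TPM in control, and neither passed. Every count of these lists rests on genes selected on the same libraries. With control replicate 1 or OA replicate 2 left out limma called 0 genes of the whole table, and hence 0 members of any list (339 and 327 genes at an unadjusted p under 0.05).

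**Figure D3:**
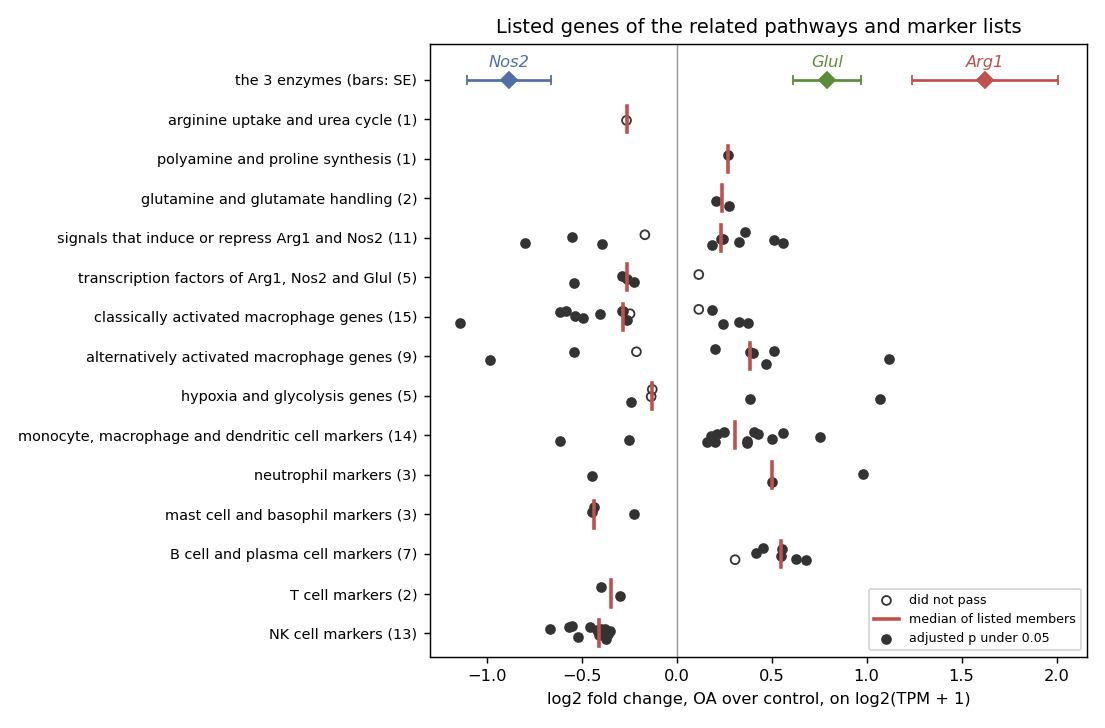
Log2 fold changes of OA over control on log2(TPM + 1) (x axis) for Arg1, Nos2 and Glul, with their SE, and for the listed members of each gene list, with the number listed in brackets; filled points passed a limma adjusted p under 0.05, open points did not, and red lines are list medians. Arg1, at 1.62, lay beyond every listed member of these lists, and most list members lay within 1 log2 unit of 0.

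Each gene was then set beside the listed genes that followed it most closely, by Pearson's r of log2(TPM + 1) over the 6 libraries. Arg1 was followed most closely by the neutrophil-attracting chemokine genes Cxcl3 and Cxcl1 (r = 0.999 each), the myeloid chemokine gene Ccl9, the lymphoid transcription factor gene Spib and Serpinb2 (r = 0.998 each). Cxcl3 stood at 1640, 1854 and 2064 TPM in OA replicates 1, 2 and 3, against 932, 1072 and 563 TPM in control replicates 1, 2 and 3. Like Arg1, it was lowest in control replicate 3 and highest in OA replicate 3. For the deviations of the libraries from their group means, r with Arg1 was 0.995 for Cxcl3.

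Nos2 was followed most closely by the granzyme B gene Gzmb. Gzmb had r = 0.9999 with it over the 6 libraries, the histone chaperone gene Set r = 0.9997, and the granzyme C gene Gzmc and Arid5a, which encodes an RNA-binding protein, r = 0.999 each. Gzmb stood at 1176, 1080 and 892 TPM in OA replicates 1, 2 and 3, against 1433, 1430 and 1791 TPM in control replicates 1, 2 and 3. The deviations from the group means gave r = 0.9997 for Gzmb and 0.985 for Ifng. From high to low the order of the libraries by Nos2 was control replicates 3, 1 and 2 and then OA replicates 1, 2 and 3, and 122 other listed genes (21.9% of 558), Ifng among them, had that order.

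Glul was followed most closely by Cd36 (r = 0.999), then by the lysosomal protease gene Ctsl (0.996), the surface glycoprotein gene Cd24a, the histone gene H3f3a and the B cell gene Ly6d (0.994 each). Cd36 stood at 173, 200 and 286 TPM in OA replicates 1, 2 and 3, against 108, 119 and 74.8 TPM in control replicates 1, 2 and 3. Like Glul, it was highest in OA replicate 3, the library with the heart muscle transcripts. Arg1 and Glul ranked the libraries alike, and 64 other listed genes (11.5% of 558) did so too. Between the members, r was 0.965 for Arg1 and Glul, −0.956 for Arg1 and Nos2 and −0.997 for Glul and Nos2. These values are descriptions over 6 points that share the group difference and the distance of replicate 3. The absolute r was at least 0.9 with Arg1 for 61.6% of the other listed genes, with Nos2 for 73.8% and with Glul for 75.6%.

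The cells that carried Arg1, Nos2 and Glul transcripts cannot be read from bulk libraries, in which fewer cells of a type and less RNA per cell cannot be told apart. Genes of NK cells were present and lower in OA. Of 26 NK cell markers 13 were listed and 13 fell, beside 40.1% of all listed genes, and 5 fell with libraries scaled to equal medians. Their summed TPM was between 3015 and 3875 in OA libraries and between 4582 and 5468 in control libraries. Gzmb, Gzma and Nkg7, which encode granule proteins, and Il2rb, a receptor chain for interleukins 2 and 15, fell to 0.677, 0.630, 0.774 and 0.788 of control. Ncr1, a marker gene of mouse NK cells, fell to 0.699 of control and was above 79 TPM in every library. From high to low the libraries came in the same order by this sum as by Nos2.

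Monocyte, macrophage and dendritic cell markers were present in every library too. Of 42, 14 were listed, of which 12 rose and 2 fell, beside 36.0% higher and 40.1% lower over all listed genes. The lowest value of any was 5.30 TPM, so that 0 were at 0. Their summed TPM was between 3469 and 3636 in OA libraries and between 2812 and 3173 in control libraries, a 1.18-fold ratio of the means. Of the most abundant, Cd14 rose 1.46-fold, Mpeg1, a pore-forming protein gene of phagocytes, 1.19-fold, the lectin receptor gene Clec4d 1.16-fold and the integrin gene Itgam 1.12-fold. The 2 that fell were Ly6c2, to 0.656 of control, and the chemokine receptor gene Ccr2, to 0.839 of control. The defining markers Csf1r, Lyz2 and Cd68 were not listed. With libraries scaled to equal medians 7 rose and 1 fell.

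Set against the summed macrophage markers of the same library, the differences of the 3 genes remained on the same side. For Nos2 this was fixed beforehand, since Nos2 was lower and the marker sum higher in every OA library. Per 1000 TPM of these markers Arg1 stood at 44.1, 48.3 and 55.5 TPM in OA replicates 1, 2 and 3, against 22.9, 25.6 and 11.0 TPM in control replicates 1, 2 and 3, a log2 difference of 1.399. Nos2 was at 17.2 ± 4.04 in OA and 38.0 ± 10.4 in control (SD, n = 3 each; log2 difference −1.14), and Glul at 32.3 ± 5.46 in OA and 21.8 ± 2.23 in control (log2 difference 0.56). Set against the summed NK markers, Nos2 stood at 18.8, 17.5 and 15.5 TPM per 1000 in OA replicates 1, 2 and 3, against 21.4, 21.7 and 25.7 in control replicates 1, 2 and 3. The log2 difference of Nos2 was then −0.41, against −0.88 for the TPM as deposited, and those of Arg1 and Glul were 2.13 and 1.29. Arg1 and Glul could only stay higher in OA per NK markers, since that sum was lower in every OA library. The markers in these sums are those that the authors' own test on these libraries listed, so the sums do not measure the share of a cell type, and the part of the cell mixture in the levels of the 3 genes was not tested.

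Markers of B cells, neutrophils, mast cells, basophils and T cells also differed between the groups. Limma called 76.0% of all listed genes, 36.0% higher and 40.1% lower, so counts over so few markers describe only those markers. Of 20 B cell and plasma cell markers 7 were listed, of which 6 rose and 0 fell, and their summed TPM was between 545 and 641 in OA libraries and between 345 and 437 in control libraries. Of these Ly6d, the plasma cell gene Mzb1 and Cd79a of the B cell receptor rose 1.604-fold, 1.47-fold and 1.37-fold. Of 17 neutrophil markers 3 were listed, of which the collagenase gene Mmp8 and the gelatinase gene Mmp9 rose 1.41-fold and 2.28-fold and the histamine synthesis gene Hdc fell to 0.731 of control; their sum was between 577 and 630 TPM in OA libraries and between 384 and 498 TPM in control libraries. All 3 listed markers of 14 for mast cells and basophils, Hdc, the protease gene Mcpt8 and the receptor gene Kit, fell, with sums between 174 and 206 TPM in OA libraries and between 240 and 255 TPM in control libraries. Both listed markers of 18 for T cells, Icos and Cd28, fell, with sums between 194 and 240 TPM in OA libraries and between 259 and 291 TPM in control libraries. Every listed marker was above 0 in every library, and the part of these cells in the levels of Arg1, Nos2 and Glul was not tested.

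**Figure D4:**
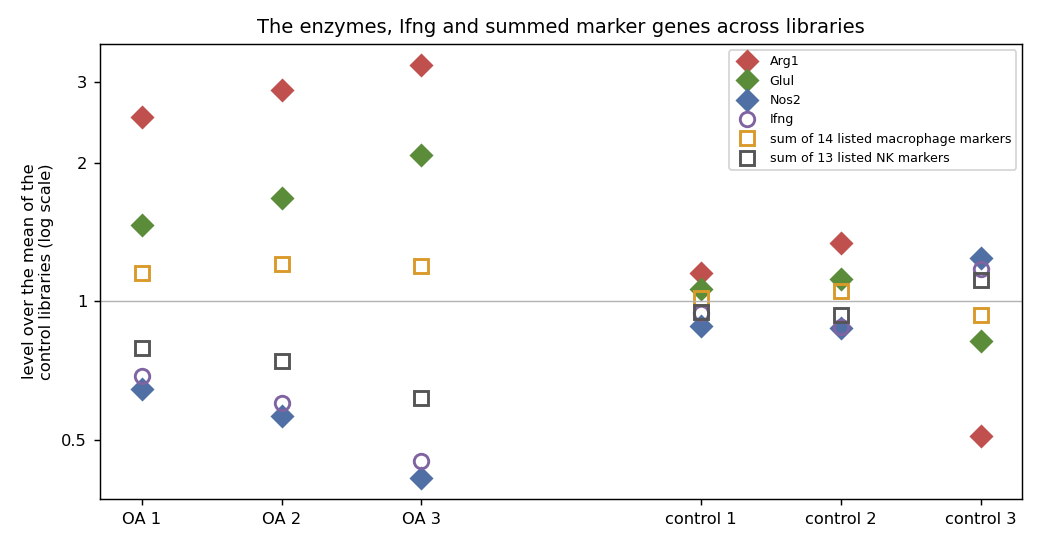
Levels of Arg1, Glul, Nos2 and Ifng and the summed TPM of 14 listed macrophage markers and 13 listed NK markers in each library, divided by the mean of the control libraries (y axis, log scale; x axis, OA and control libraries by replicate number). Nos2, Ifng and the NK markers lay below 1 in every OA library, and Arg1 and Glul lay above it by more than the macrophage markers, whose ratio of group means was 1.18. The marker sums hold only listed genes and do not measure the share of a cell type.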

How the data were processed

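RNA was sequenced from 3 OA and 3 control samples of mouse splenic NK cells, put in groups by the treatment in their labels. The submitters' processing notes name Bowtie2, RSEM 1.3.1, DESeq2 1.4.5 and the build mm10 and give them no role or order; the annotation and filters behind the table are not given in the sources used here. Per the file headers, the authors' table has the TPM of each library, the mean TPM of each group, a log2 fold change, a P value and a Q value, for 559 genes. Depth and counting error cannot be had from TPM, so a count test was not possible. The 6 libraries each hold between 12.2% and 12.6% of their TPM scale in the listed genes. No libraries were identical, with equal TPM for at most 14 genes between any pair.

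Differences are OA minus control on log2(TPM + 1). They are from limma 3.58.1 in R 4.3.3, fitted over all 559 genes with no filter and no covariate. Calls used two-sided tests and a Benjamini-Hochberg adjusted p under 0.05. The fit was tested on simulated data with independent noise in each gene. That run does not show how calls hold for genes selected on these libraries that vary together. Python 3.11.15, numpy 2.4.6, pandas 2.3.3 and matplotlib 3.10.9 made the tables and plots. Gene lists (15 with 361 distinct symbols) are described by counts and medians, without a set test. The genes named are Arg1, Nos2 and Glul, their neighbours by log2 difference, the 5 listed genes with the highest r with each, every listed gene of the 4 arginine and glutamine lists, up to 6 with the largest difference of the other pathway lists and up to 4 of the most abundant of each marker list. A few genes named by this rule are left unreported. The members, lists and rule were chosen with earlier results of these data known. Gene models and the promoter are from RefSeq and GENCODE on GRCm38, which is mm10. Other pseudocounts, a level filter, equal medians, the replicate block, another prior and libraries left out were the alternatives tried; the heart muscle list and division by summed markers were chosen after seeing the data.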

Additional observations from a re-analysis of the deposited data

How the results depend on the processing

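The log2 differences of Arg1, Nos2 and Glul and of the Arg1 to Nos2 ratio kept their sign under every alternative tried. With each library left out in turn they ranged from 1.20 to 1.89 for Arg1, from −1.02 to −0.70 for Nos2, from 0.66 to 0.91 for Glul and from 1.94 to 2.89 for the ratio. Since the groups did not overlap, leaving out libraries could not have turned a sign. Nor could division by the macrophage marker sum for Nos2, or by the NK marker sum for Arg1 and Glul. Without replicate 3 of both groups Nos2 was at −0.54, Glul at 0.52 and the ratio at 1.67, and per summed NK markers Nos2 was at −0.41 and Glul at 1.29; the cause was not tested. Other pseudocounts and equal medians moved the 3 genes by less than the spread between replicates. The level filter, another prior and the replicate block could not change the log2 difference of a gene. Those settings are therefore no check on its size or sign.

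Counts over the table depended on the setting. Limma called 201 genes higher and 224 lower; with equal medians it called 162 higher and 80 lower, and at an adjusted p under 0.01 it called 0 and 1. With the replicate number as a block it called 0 higher and 0 lower (149 and 89 at an unadjusted p under 0.05). The labels do not say whether the numbers pair the libraries. The correlation of same-numbered deviations was 0.33, −0.11 and −0.08 for replicates 1, 2 and 3. Between differently numbered libraries it lay between −0.40 and 0.35. With 3 libraries per group and genes selected for the group difference, these values cannot decide whether the libraries were paired. Leaving out one library gave 0 to 177 higher and 0 to 187 lower: 0 and 0 without control replicate 1 (171 and 168 unadjusted) and without OA replicate 2 (159 and 168 unadjusted), 87 and 13 without control replicate 2, 119 and 30 without control replicate 3, and 174 and 138 without OA replicate 3.

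By list, leaving out one library gave 0 to 6 signal genes that rose and 0 to 3 that fell, 0 to 3 transcription factors that fell, 0 to 4 classical genes that rose and 0 to 9 that fell, 0 to 6 alternative genes that rose and 0 to 2 that fell, and 0 to 2 hypoxia genes that rose and 0 to 1 that fell. It gave 0 to 1 polyamine gene and 0 to 1 glutamine gene that rose. Among markers it gave 0 to 7 macrophage genes that rose and 0 to 1 that fell, 0 to 2 neutrophil genes that rose and 0 to 1 that fell, 0 to 5 B cell genes that rose, and 0 to 2 mast cell, 0 to 2 T cell and 0 to 12 NK genes that fell. With equal medians 5 NK genes, 5 classical genes, 1 transcription factor, 1 T cell gene and 1 macrophage gene fell, and 7 macrophage and 0 glutamine genes rose. Among genes with a mean of at least 10 TPM, 1 arginine uptake gene and 2 hypoxia genes fell and 1 neutrophil gene rose, the low gene Mmp9 being left out. The cause of the differences between settings was not tested. What depth limits cannot be given, since the table holds no read numbers.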
